A study of Mus musculus with 6 samples.

Results

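The 10 genes described here encode the FOS proteins (*Fos*, *Fosb*, *Fosl1*, *Fosl2*), the JUN proteins (*Jun*, *Junb*, *Jund*) and the factors ATF3, EGR1 and IER2. They were picked by gene symbol from a count table of 37384 genes, and all 10 passed the count filter that left 15674 genes for testing. RNA came from floated adipocytes of inguinal subcutaneous white adipose tissue (scWAT) of male mice at postnatal day 7 (P7), with 3 libraries per genotype and 4 pooled mice per library. L1L2-FF mice carried floxed *Lats1* and *Lats2* alleles (Lats1f/fLats2f/f) and no Cre, and L1L2-AKO mice carried the same floxed alleles with AdipoqCre, in which the promoter of the adipocyte hormone gene *Adipoq* drives Cre. Tissue of both genotypes was digested with collagenase for 12 to 15 min at 37 °C, and the floated cells were taken. Total counts ranged from 30548473 to 32107917 per library. The floated fraction carried adipocyte transcripts, with *Fabp4*, a fatty acid carrier of fat cells, at 8164 ± 1201 CPM (counts scaled to library size with TMM normalization) in L1L2-FF against 6610 ± 346 CPM in L1L2-AKO (mean ± SD over 3 libraries). It also carried transcripts of macrophages, vessels and nerve sheath, so a level is that of the whole fraction, and fewer cells of a type cannot be told apart from less RNA per cell.

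As a check of the labels, *Lats1* fell from 82.9 ± 9.90 to 40.2 ± 1.16 CPM (SD, n = 3 each), or by 1.04 on the log2 scale (edgeR quasi-likelihood test, Benjamini-Hochberg (BH) adjusted p = 0.00131). *Lats2* went against the label, at 76.4 ± 8.68 CPM in L1L2-FF and 119 ± 20.6 CPM (SD, n = 3 each) in the other libraries (log2 fold change 0.64, edgeR, BH-adjusted p = 0.0278). The *Lats2* call was lost without L1L2-FF replicate 1 or 3 or L1L2-AKO replicate 2 or 3, with adjusted p-values of up to 0.104. A count over a whole gene does not show whether the floxed exons are missing. By RT-qPCR, the authors reported reduced mRNA of both *Lats1* and *Lats2* in adipocytes isolated from scWAT of P7 L1L2-AKO mice. Each direction below is given for the libraries as labelled, L1L2-AKO relative to L1L2-FF.

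AP-1 is a family of dimers of basic leucine zipper proteins that bind DNA as FOS-JUN or JUN-JUN pairs and, with partners such as ATF3, set the transcription of genes for growth, matrix turnover and inflammation. FOS and FOSB carry strong activation domains, whereas FRA-1 and FRA-2, the products of *Fosl1* and *Fosl2*, lack them, and FOS proteins need a JUN partner to bind DNA. *Fos*, *Fosb*, *Jun*, *Junb*, *Egr1*, *Ier2* and *Atf3* are immediate-early genes, transcribed within minutes of a stimulus without new protein synthesis, and enzymatic digestion of tissue is a known stimulus for them. AP-1 is also known to share enhancers with YAP, TAZ and TEAD, the nuclear effectors that LATS kinases restrain, and FRA-2 is known in adipocytes as an activator of the leptin gene.

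The promoters are shown first for *Fos*, *Fosb* and *Jun*, 3 genes that fell, and for *Fosl2*, which did not pass the test. RefSeq promoter windows (GRCm38.p6, 250 bases before to 50 after the start) were at hand for 7 of the 10 genes, and for *Fosl1*, *Egr1* and *Ier2* none is shown. The windows are those of *Fos* on the plus strand (chr12:85473640-85473939), *Fosb* on the minus strand (chr7:19309996-19310295), *Jun* on the minus strand (chr4:95052173-95052472) and *Fosl2* on the plus strand (chr5:32136222-32136521). Each is written from 5′ to 3′ on the gene's strand, and capitals mark matches, on either strand, to any of the 8 motifs searched.
Fos: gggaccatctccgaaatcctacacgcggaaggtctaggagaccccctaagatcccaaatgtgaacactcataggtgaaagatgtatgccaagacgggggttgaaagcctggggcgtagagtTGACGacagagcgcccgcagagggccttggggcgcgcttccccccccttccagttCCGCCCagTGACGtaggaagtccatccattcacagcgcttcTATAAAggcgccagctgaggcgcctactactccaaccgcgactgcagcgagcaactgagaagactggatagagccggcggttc
Fosb: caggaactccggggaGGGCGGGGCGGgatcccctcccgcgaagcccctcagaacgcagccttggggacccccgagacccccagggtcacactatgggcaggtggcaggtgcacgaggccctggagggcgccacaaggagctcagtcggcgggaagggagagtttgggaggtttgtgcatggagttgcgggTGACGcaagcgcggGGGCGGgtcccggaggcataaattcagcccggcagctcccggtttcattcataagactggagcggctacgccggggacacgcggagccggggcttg
Jun: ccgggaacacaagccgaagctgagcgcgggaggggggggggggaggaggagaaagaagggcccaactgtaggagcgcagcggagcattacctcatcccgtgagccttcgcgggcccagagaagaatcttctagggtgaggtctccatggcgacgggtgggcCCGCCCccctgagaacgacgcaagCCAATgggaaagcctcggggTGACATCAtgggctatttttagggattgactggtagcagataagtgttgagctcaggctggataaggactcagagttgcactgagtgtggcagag
Fosl2: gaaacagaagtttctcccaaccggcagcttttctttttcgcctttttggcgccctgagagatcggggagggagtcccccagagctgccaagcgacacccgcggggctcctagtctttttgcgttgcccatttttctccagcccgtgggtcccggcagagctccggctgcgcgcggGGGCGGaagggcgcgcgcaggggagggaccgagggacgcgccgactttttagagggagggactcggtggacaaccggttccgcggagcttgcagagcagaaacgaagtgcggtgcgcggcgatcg
The motifs searched were the CArG box that SRF binds, TGACNTCA (the full cyclic AMP response element where N is G), TGACTCA (the AP-1 site), TGACG (the core of the cyclic AMP response element, which can lie inside TGACNTCA), CCAAT (the NF-Y site), GGGCGG (the SP1 site), GGAATG (the TEAD site) and TATAAA (the TATA box). Of these, TGACG was found in *Fos* (at -129 and -66 from the start), *Fosb* (at -60), *Junb* (at -106) and *Atf3* (at -7), and 20.8% of all 32851 promoters of this length hold it. *Jun* held TGACNTCA at -45, a motif found in 8.83% of promoters. The window of *Fosl2* held a single GGGCGG at -75, which 35.7% of promoters hold and which was also found in *Fos*, *Fosb*, *Jun* and *Atf3*. This window lies wholly inside *Fosl2* as annotated in GENCODE M21, where the gene begins at chr5:32135801. The bases before that annotated start were not searched. CCAAT (37.4% of promoters) was found in *Jun*, *Junb* and *Atf3*, and TATAAA (13.6%) in *Fos* and *Junb*. The CArG box (1.63% of promoters), TGACTCA (5.2%) and GGAATG (14.7%) were found in 0 of the 7 windows. Sites more than 250 bases before the start, and any site of *Fosl1*, *Egr1* or *Ier2*, were not searched. A motif missing here can therefore still lie elsewhere in the regulatory sequence of a gene.

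Of the 10 genes, 7 fell in the libraries labelled L1L2-AKO: *Fos*, *Fosb*, *Jun*, *Jund*, *Egr1*, *Ier2* and *Atf3*. Across all tested genes 7.18% were lower at the same threshold, an adjusted p-value of 0.05. The other 3 genes, *Junb*, *Fosl1* and *Fosl2*, did not pass the test. In the same 7 genes the 3 libraries labelled L1L2-AKO all lay below the 3 L1L2-FF libraries, a separation seen in this direction in 18.4% of tested genes, and in either direction in 36.4%. The median log2 fold change was -0.96 for the 10 genes and -0.02 for all tested genes. No gene of the 10 rose by edgeR's test, 0 did so at an unadjusted p-value of 0.05, and DESeq2 and limma-voom gave 0 as well. By mean CPM over the 6 libraries *Egr1* had rank 64 and *Fos* rank 86 of 37384 genes, 7 others lay between rank 162 (*Jun*) and rank 3011 (*Atf3*), and *Fosl1* had rank 12080.

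**Figure D1:**
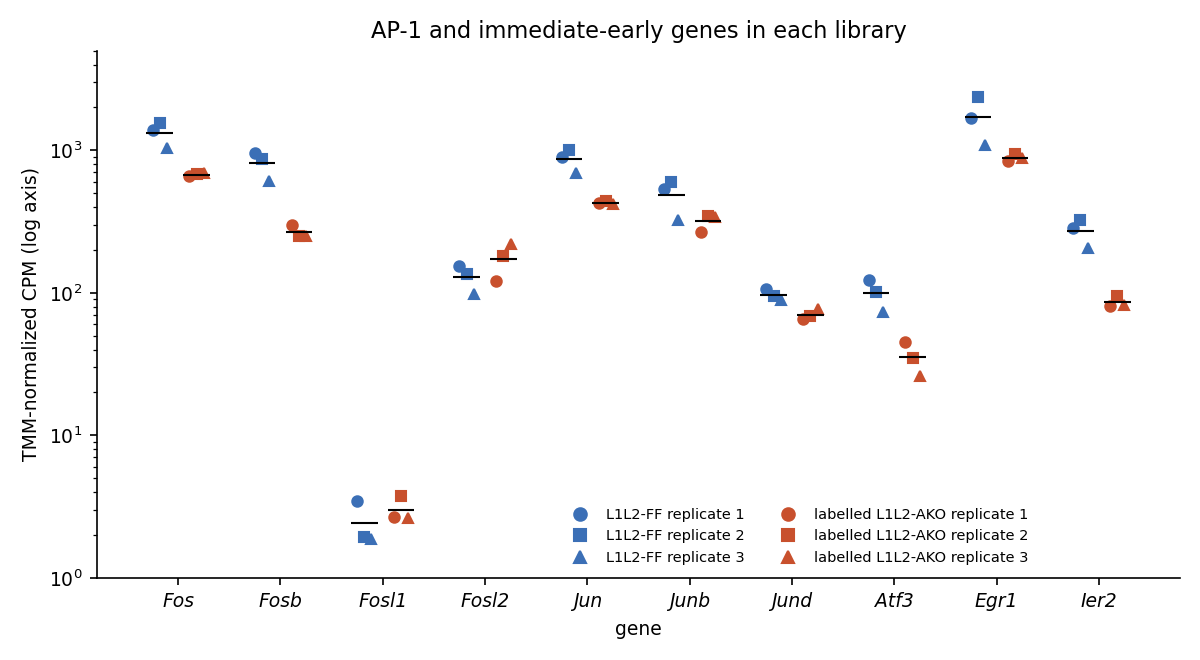
Level of each of the 10 genes in the 6 libraries, in TMM-normalized CPM on a log axis. Points are libraries, with the marker shape giving the replicate number, and black lines are the means of 3 libraries. *Fos*, *Fosb*, *Jun*, *Jund*, *Atf3*, *Egr1* and *Ier2* lie lower in every library labelled L1L2-AKO, and *Junb*, *Fosl1* and *Fosl2* overlap.

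*Fos* (ENSMUSG00000021250.13, chr12:85473890-85477273, plus strand, mm10) encodes the prototype FOS protein. Its level was 1379, 1559 and 1047 CPM in the L1L2-FF libraries, in replicate order, against 657, 681 and 691 CPM in those labelled L1L2-AKO. The lowest L1L2-FF library thus exceeded the highest of the others, and the spread was 259.7 CPM (SD) in L1L2-FF and 17.6 CPM in the other genotype. *Fos* fell by 0.97 on a log2 scale (standard error 0.18, edgeR, BH-adjusted p = 0.00947), to 50.9% of its L1L2-FF level.

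*Fosb* (ENSMUSG00000003545.3, chr7:19302696-19310051, minus strand) encodes the second FOS protein with strong activation domains. It stood at 958, 876 and 609 CPM in L1L2-FF and at 298, 249 and 251 CPM in the libraries labelled L1L2-AKO. and did not overlap. *Fosb* fell by 1.61 on a log2 scale (standard error 0.20, edgeR, BH-adjusted p = 0.00176), to 32.7% of the L1L2-FF level. The calls for *Fos* and *Fosb* held with each of the 6 libraries left out.

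*Jun* (ENSMUSG00000052684.4, chr4:95049034-95052222, minus strand) encodes the JUN protein that pairs with FOS. Its level was 901, 1013 and 692 CPM in L1L2-FF and 429.9, 438 and 417 CPM in the libraries labelled L1L2-AKO, with no overlap. *Jun* fell by 1.02 on a log2 scale (standard error 0.17, edgeR, BH-adjusted p = 0.00604), and the call held without any 1 library. Of 12584 genes whose average log2 CPM was 1 or more, *Jun* had the pattern over the 6 libraries nearest to that of *Fos*, with a root mean square distance of 0.0437 between the centred log2 CPM values. Next were *Ttc38* at 0.0771 and *Abi3bp* at 0.0778.

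*Junb* (ENSMUSG00000052837.6, chr8:84974484-84978718, minus strand) encodes a JUN protein that activates less strongly than JUN. It was at 534, 603 and 324 CPM in L1L2-FF and at 266, 347 and 339 CPM in the libraries labelled L1L2-AKO, so L1L2-FF replicate 3 lay within the range of the other genotype. The log2 fold change was -0.62 (95% interval -1.16 to -0.08, edgeR, BH-adjusted p = 0.117). Without L1L2-FF replicate 3 it was -0.85 with a BH-adjusted p of 0.0183 by edgeR.

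*Jund* (ENSMUSG00000071076.6, chr8:70698949-70700616, plus strand) encodes a JUN protein that most cells express at rest. Its counts gave 106, 94.9 and 88.4 CPM in L1L2-FF and 65.3, 68.8 and 77.0 CPM in the libraries labelled L1L2-AKO. With no overlap, *Jund* showed the smallest of the 7 falls, 0.45 on a log2 scale (standard error 0.12, edgeR, BH-adjusted p = 0.0363). The call was lost without L1L2-FF replicate 1 or without any 1 of the 3 libraries labelled L1L2-AKO, with adjusted p-values by edgeR of up to 0.137, and with no filter on low counts (adjusted p = 0.0505). An antisense gene, *Gm11175*, covers 52.6% of the exonic bases of *Jund* and is listed at 0 in all libraries, and the counting is not stated to use strand.

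*Fosl2* (ENSMUSG00000029135.10, chr5:32135801-32157842, plus strand) encodes FRA-2. It stood at 154, 137 and 98.7 CPM in L1L2-FF and at 121, 181 and 219 CPM in the libraries labelled L1L2-AKO. Replicates 2 and 3 of the latter exceeded every L1L2-FF library, whereas their replicate 1 lay among them. The log2 fold change was 0.42 (95% interval -0.14 to 0.97, edgeR, BH-adjusted p = 0.293), and it stayed between 0.22 and 0.62 with each library left out. The genes nearest to *Fosl2* in pattern were *Zfp521* (distance 0.0819), *Map3k14* (0.0881) and *Tcf7l2* (0.0952).

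*Fosl1* (ENSMUSG00000024912.6, chr19:5447547-5455946, plus strand) encodes FRA-1 and was scarcely read. Its raw counts were 109, 63 and 58 in L1L2-FF against 89, 118 and 75 in the libraries labelled L1L2-AKO, or 1.87 to 3.48 and 2.62 to 3.74 CPM, and the groups overlapped. The log2 fold change was 0.31 (95% interval -0.42 to 1.04, edgeR, BH-adjusted p = 0.570). *Ccdc85b*, on the opposite strand, shares 57.2% of the exonic bases of *Fosl1* and had 387 to 823 counts per library, so that reads of both genes could not be told apart there without strand.

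**Figure D2:**
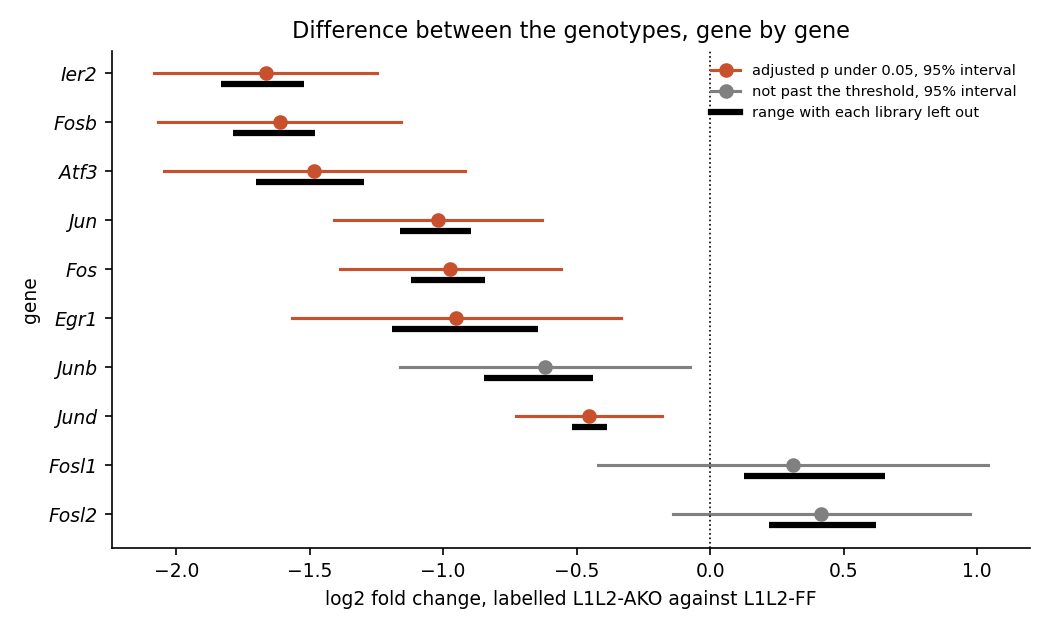
Log2 fold change of each gene between the libraries labelled L1L2-AKO and L1L2-FF (x axis), with its 95% interval from edgeR's quasi-likelihood fit and, in black, the range of the estimate when each library was left out. *Ier2*, *Fosb* and *Atf3* lie below -1.4, the intervals of *Fosl1* and *Fosl2* include 0, and no range with a library left out crosses 0.

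The contrast of *Fosl1* and *Fosl2* with *Fos* and *Fosb* was read within each library, as the ratio of raw counts of a pair of genes, which does not depend on normalization. For every 100 reads of *Fosb*, *Fosl2* had 16.1, 15.6 and 16.2 in the L1L2-FF libraries, in replicate order, against 40.4, 72.6 and 87.1 in those labelled L1L2-AKO. The 3 L1L2-FF libraries lay within 1 read of each other, and all 3 others were higher and far apart. The mean log2 ratio of *Fosl2* to *Fosb* was -2.65 ± 0.03 (SD, n = 3) in L1L2-FF against -0.66 ± 0.58 (SD, n = 3) in those labelled L1L2-AKO, a difference of 1.99, or 3.97-fold. Relative to *Fos*, *Fosl2* had 11.2, 8.77 and 9.43 reads per 100 in L1L2-FF against 18.3, 26.5 and 31.7 in the libraries labelled L1L2-AKO, and the mean log2 ratio differed by 1.35. *Fosl1* had 0.252, 0.125 and 0.179 reads per 100 reads of *Fos* in L1L2-FF against 0.409, 0.549 and 0.379, a 2.47-fold difference in the mean of the log2 ratios. Its ratio to *Fosb* differed by 3.84-fold. In all 4 pairs the genotypes did not overlap. Each gave p = 0.1 in an exact permutation test (two-sided, n = 3 libraries per genotype), the smallest p that 3 libraries against 3 allow, and 0.1 after Benjamini-Hochberg adjustment over the 4 pairs. The numerators *Fosl1* and *Fosl2* did not pass the test on their own, and both denominators fell.

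**Figure D3:**
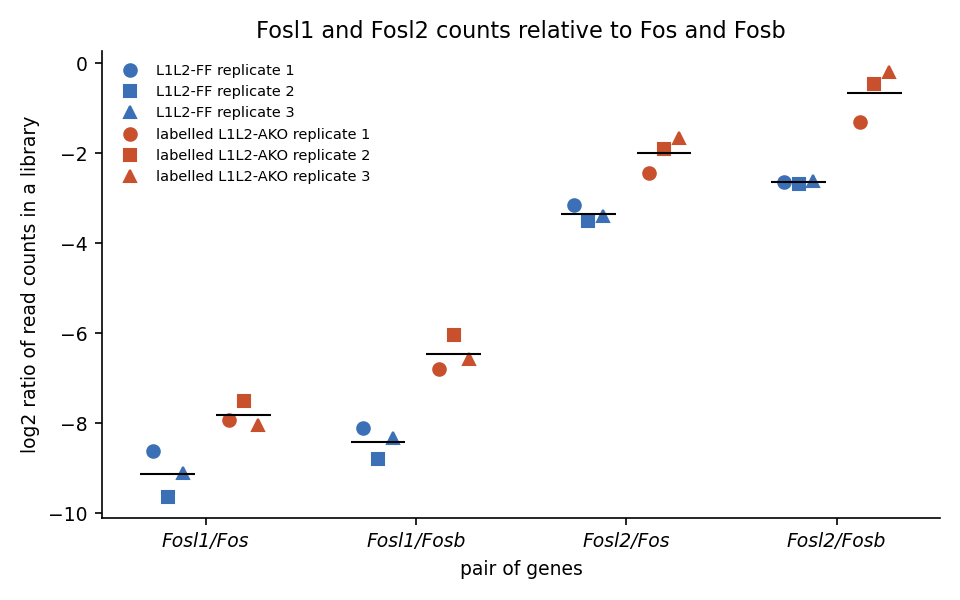
Log2 ratio of raw read counts within a library for 4 pairs of genes. Points are libraries, shapes give the replicate number and black lines are means of 3. Every library labelled L1L2-AKO lies above the 3 L1L2-FF libraries in each pair, and for *Fosl2*/*Fosb* the means are -2.65 and -0.66.

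Levels can be set side by side between genes only per length, so CPM was divided by the exonic length in kilobases (GENCODE M21). On this scale *Fos* made up 79.6 ± 1.93% of the summed level of the FOS genes in L1L2-FF and 82.3 ± 0.436% in the libraries labelled L1L2-AKO (SD, n = 3 each). *Fosb* made up 18.3 ± 1.68% and 12.2 ± 1.56% (SD, n = 3 each). The share of *Fosl2* was 1.89 ± 0.194% (SD, n = 3) in L1L2-FF against 3.65, 5.33 and 6.32% in those labelled L1L2-AKO, so *Fos* outnumbered it in every library of both genotypes. *Fosl1* stayed under 1% of the FOS genes in each library, with a highest share of 0.526%. The summed level of the FOS genes was 709.8 ± 138.5 CPM per kilobase in L1L2-FF and 349.7 ± 8.57 CPM per kilobase in the libraries labelled L1L2-AKO (SD, n = 3 each). For the JUN genes the sum was 542 ± 117 and 314 ± 21.6 CPM per kilobase (SD, n = 3 each), of which *Jun* held 50.5 ± 2.06% and 42.9 ± 3.27%.

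In L1L2-FF the order of levels per kilobase was *Fos* (565), *Egr1* (382), *Jun* (272), *Junb* (212), *Ier2* (179), *Fosb* (130), *Jund* (57.8), *Atf3* (46.0), *Fosl2* (13.4) and *Fosl1* (1.20), in CPM per kilobase. Across the L1L2-FF libraries the ranges of neighbours overlapped from *Fos* down to *Fosb*, and *Jund* overlapped with *Atf3*. Within each L1L2-FF library, however, the genes stood in this same order throughout. The steps from *Fosb* to *Jund*, from *Atf3* to *Fosl2* and from *Fosl2* to *Fosl1* did not overlap. In the libraries labelled L1L2-AKO the order was *Fos* (288), *Egr1* (198), *Junb* (138), *Jun* (134), *Ier2* (56.3), *Fosb* (42.6), *Jund* (42.2), *Fosl2* (17.9), *Atf3* (16.5) and *Fosl1* (1.48). There the pairs *Junb* and *Jun*, *Fosb* and *Jund*, and *Fosl2* and *Atf3* overlapped, and the other neighbours did not. Each of these pairs also changed order from library to library.

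*Egr1* (ENSMUSG00000038418.7, chr18:34859823-34864984, plus strand) encodes a zinc finger factor that serum and stress induce together with *Fos*. Its level was 1679, 2370 and 1095 CPM in L1L2-FF and 838, 941 and 881 CPM in the libraries labelled L1L2-AKO. The groups did not overlap, although the L1L2-FF libraries spanned a wide range. *Egr1* fell by 0.95 on a log2 scale (standard error 0.27, edgeR, BH-adjusted p = 0.0470). This call lay near the threshold: it was lost without L1L2-FF replicate 1, L1L2-FF replicate 2 or any 1 library labelled L1L2-AKO, with adjusted p-values by edgeR of up to 0.134, and with limma-voom, where the adjusted p was 0.0529.

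*Ier2* (ENSMUSG00000053560.4, chr8:84661331-84662852, minus strand) encodes a small nuclear protein of the immediate-early response. It stood at 286, 324 and 206 CPM in L1L2-FF and at 80.2, 95.2 and 81.8 CPM in the libraries labelled L1L2-AKO. This was the largest fall of the 10 genes, 1.67 on a log2 scale (standard error 0.18, edgeR, BH-adjusted p = 0.00119), to 31.5% of the L1L2-FF level. *Atf3* (ENSMUSG00000026628.13, chr1:191170296-191218039, minus strand) encodes a stress-induced zipper protein that pairs with JUN proteins and often represses. Its level was 123, 101 and 73.4 CPM in L1L2-FF and 45.5, 34.9 and 26.1 CPM in the libraries labelled L1L2-AKO. *Atf3* fell by 1.48 on a log2 scale (standard error 0.24, edgeR, BH-adjusted p = 0.00593), and the calls for *Ier2* and *Atf3* held without any 1 library.

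L1L2-FF replicate 3 was the lowest of the 3 L1L2-FF libraries in all 10 genes. Relative to the mean log2 CPM of its genotype it lay lower by 0.32 for *Fos*, 0.54 for *Junb* and 0.58 for *Egr1*, and by 0.12 for *Jund*. Without this library 8 of the 10 genes fell, and with each other library left out 5 or 6 did. The libraries labelled L1L2-AKO varied less in most of the 10 genes, with coefficients of variation of 2.60% for *Fos* and 2.42% for *Jun* against 19.6% and 18.7% in L1L2-FF. *Fosl2* and *Atf3* were exceptions, at 28.6% and 27.4% against 21.9% and 25.1%. Across the libraries labelled L1L2-AKO these genes ran in opposite order, with *Atf3* highest and *Fosl2* lowest in replicate 1.

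The 10 genes have few exons. The largest number of exons in an annotated transcript was 1 for *Jun*, *Jund* and *Ier2* and at most 5 for the others, whereas 33.8% of the 15485 tested genes with a gene model had at most 5. Their median exonic length was 2327 bases, against 4093 for tested genes. None of the 10 shared a stretch of 50 bases with transcripts of another gene.

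Of 11 other basic leucine zipper factors that can join AP-1 dimers, all tested, 4 rose (among them *Maf*, *Mafk* and *Jdp2*), 0 fell and 7 did not pass, with a median change of 0.68 (log2), against 9.28% higher among all tested genes. Of the same 11 genes, 0 were lower at an unadjusted p-value of 0.05, by DESeq2 or by limma-voom. *Maf*, a large zipper factor, rose from 74.7 ± 3.96 to 136 ± 9.01 CPM (SD, n = 3 each), with a log2 fold change of 0.87 (edgeR, BH-adjusted p = 0.00193). *Jdp2*, a partner of JUN that represses AP-1, was at 25.2, 20.1 and 21.4 CPM in L1L2-FF and at 33.7, 39.6 and 43.8 CPM in the libraries labelled L1L2-AKO, a rise of 0.81 on the log2 scale (edgeR, BH-adjusted p = 0.00782). *Mafk*, a small MAF protein without an activation domain, had a log2 fold change of 0.87 (edgeR, BH-adjusted p = 0.0456). Its call was lost without L1L2-FF replicate 1 or 3 or L1L2-AKO replicate 2 or 3, with adjusted p-values by edgeR of up to 0.152. *Atf7*, a CREB-related partner of JUN, stood at 63.7 ± 4.90 and 79.0 ± 5.19 CPM (SD, n = 3 each) and did not pass. The number of genes that rose was 2 to 5 with a library left out, and it was 2 without L1L2-FF replicate 1 or 3 or L1L2-AKO replicate 2 or 3. It was also 2 with scaling by library size alone or by the upper quartile, where *Mafk* was among the calls lost, and 6 by DESeq2 and 3 by limma-voom, where *Mafk* was lost as well.

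Immediate-early genes beyond these 10 were called in both directions. Of 29 listed, 27 were tested, of which 4 fell (*Egr2*, *Nfkbiz*, *Btg2* and *Arc*), 3 rose (*Nr4a3*, *Ptgs2* and *Gadd45g*) and 20 did not pass, beside 7.18% lower and 9.28% higher among all tested genes, with a median log2 fold change of -0.29. *Egr2*, a zinc finger factor related to EGR1, fell from 85.8 ± 10.6 to 24.1 ± 2.96 CPM (SD, n = 3 each), by 1.83 on the log2 scale (edgeR, BH-adjusted p = 3.89e-04). *Zfp36*, which encodes a protein that destabilizes AU-rich mRNAs, was the most abundant of the list, at 790.0 ± 206 and 483 ± 107 CPM (SD, n = 3 each). It did not pass (log2 fold change -0.71, edgeR, BH-adjusted p = 0.0880), but did without L1L2-FF replicate 3 (adjusted p = 0.0345 by edgeR) and by DESeq2. *Klf6*, a zinc finger factor, was at 350.3 ± 26.8 and 417 ± 68.5 CPM (SD, n = 3 each) and did not pass. *Nr4a3*, an orphan nuclear receptor, was at 16.0, 9.15 and 2.93 CPM in L1L2-FF and at 15.5, 88.2 and 123 CPM in the libraries labelled L1L2-AKO, so that replicate 1 of the latter lay within the L1L2-FF range. Its log2 fold change was 3.01 (edgeR, BH-adjusted p = 0.0365), and the call was lost without any 1 library other than L1L2-AKO replicate 1, with adjusted p-values of up to 0.117. The calls of *Ptgs2* and *Gadd45g* were lost without L1L2-FF replicate 1 or L1L2-AKO replicate 2 or 3, that of *Gadd45g* also without L1L2-FF replicate 3, and that of *Arc* without L1L2-FF replicate 1 or 2 or L1L2-AKO replicate 2 or 3, with BH-adjusted p-values by edgeR of up to 0.155. With a library left out, 3 to 10 genes of this list fell, the 10 without L1L2-FF replicate 3, and 0 to 3 rose, the 0 without L1L2-FF replicate 1, L1L2-AKO replicate 2 or L1L2-AKO replicate 3. By DESeq2 10 fell and 3 rose, by limma-voom 4 fell and 1 rose, and with the replicate number as a block 6 fell and 2 rose.

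Genes that act upstream of AP-1 or feed back on it were called in either direction, at a share to be read against 16.5% of all tested genes. Of 18 kinases and activators, 2 rose (*Map2k1* and *Mrtfa*), 2 fell (*Map3k1* and *Srf*) and 14 did not pass, and the median was -0.05 on the log2 scale. *Mapk3*, which encodes a kinase of the ERK branch, was at 144 ± 16.1 CPM in L1L2-FF and at 127 ± 8.39 CPM (SD, n = 3 each) in the libraries labelled L1L2-AKO and did not pass. *Mrtfa*, a coactivator of SRF, had a log2 fold change of 0.58 and *Map2k1*, which encodes the ERK kinase MEK1, of 0.55 (edgeR, BH-adjusted p = 0.0158 and 0.0126). Both calls were lost without L1L2-FF replicate 1 or L1L2-AKO replicate 3, and that of *Mrtfa* also without L1L2-AKO replicate 2, with adjusted p-values by edgeR of up to 0.0786. Those of *Map3k1*, a kinase of the JNK branch, and *Srf*, the factor that binds the CArG box, were lost without L1L2-FF replicate 1 or any 1 library labelled L1L2-AKO, and that of *Srf* also without L1L2-FF replicate 3, with up to 0.154. Among 14 feedback phosphatases, Sprouty and Spred proteins and EGR1 corepressors, *Nab2* rose, *Dusp8* fell and 12 did not pass, with a median of 0.10. The call of *Nab2*, a corepressor of EGR1, was lost without any 1 library, and that of *Dusp8*, a MAP kinase phosphatase, without any 1 library other than L1L2-FF replicate 2, with adjusted p-values by edgeR of up to 0.146. *Dusp1*, the most abundant phosphatase of the list, was at 222 ± 40.3 and 182 ± 12.3 CPM (SD, n = 3 each) and did not pass.

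Of 16 listed genes with known AP-1 sites, 15 were tested (*Mmp10* is listed at 0 in all libraries), of which 7 rose (*Mmp13*, *Il6*, *Spp1*, *Ccl2*, *Timp1*, *Cd44* and *Plaur*), 0 fell and 8 did not pass, beside 9.28% higher and 7.18% lower among all tested genes, and the median was 0.62 on the log2 scale. At an unadjusted p-value of 0.05, by DESeq2 and by limma-voom, 0 were lower. The cytokine gene *Il6* was at 5.94, 4.82 and 3.45 CPM in L1L2-FF and at 12.8, 44.9 and 46.8 CPM in the libraries labelled L1L2-AKO, a log2 fold change of 2.88 (edgeR, BH-adjusted p = 0.00593). *Mmp13*, which encodes a collagenase, rose by 3.01 on the log2 scale (edgeR, BH-adjusted p = 0.00725), with means of only 0.159 ± 0.117 and 1.31 ± 0.273 CPM (SD, n = 3 each). The most abundant genes of the list, *Hmox1* and *Ccnd1*, had log2 fold changes of -0.07 and 0.46 and did not pass. The call of *Timp1*, an inhibitor of matrix proteases, was lost without L1L2-FF replicate 1 or 3 or L1L2-AKO replicate 2 or 3 (edgeR, BH-adjusted p of up to 0.116), and that of *Plaur*, the urokinase receptor, without L1L2-FF replicate 1 or L1L2-AKO replicate 1 or 2 (up to 0.0883).

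Stress genes were examined because ATF3 acts in the ATF4-CHOP response and because heat shock genes are known to respond to tissue digestion. Of 11 ATF4-CHOP genes, 4 fell (*Trib3*, *Ddit3*, *Cebpg* and *Asns*), 0 rose and 7 did not pass, beside 7.18% lower among all tested genes, and the median was -0.39 on the log2 scale. By DESeq2, limma-voom and an unadjusted p-value of 0.05, 0 of them were higher. *Ddit3*, which encodes CHOP, fell from 29.3 ± 2.17 to 14.2 ± 0.463 CPM (SD, n = 3 each), by 1.05 on the log2 scale (edgeR, BH-adjusted p = 0.00130). *Atf4* itself was at 205 ± 16.4 and 191 ± 18.5 CPM (SD, n = 3 each) and did not pass. Without L1L2-FF replicate 1, L1L2-AKO replicate 2 or L1L2-AKO replicate 3, 2 of the list fell. The call of *Asns*, asparagine synthetase, was lost without any 1 library other than L1L2-FF replicate 2, and that of *Cebpg*, a partner of ATF4, without those 3 libraries, with BH-adjusted p-values by edgeR of up to 0.136. Of 12 heat shock genes, 3 rose (*Cryab*, *Hsph1* and *Hspb1*), *Dnajb1* fell and 8 did not pass, beside 9.28% higher among all tested genes, with a median of -0.05. *Cryab*, a small heat shock chaperone, rose from 78.7 ± 19.5 to 296 ± 58.5 CPM (SD, n = 3 each), by 1.91 on the log2 scale (edgeR, BH-adjusted p = 0.00141). By the sign of the log2 fold change alone, 6 of the 12 were higher and 6 lower. The summed level of the 12 heat shock genes was 2604 to 2928 CPM in L1L2-FF and 3200 to 3467 CPM in the libraries labelled L1L2-AKO. *Hspa8*, the constitutive HSP70 chaperone, made up much of these sums, at 1274 ± 148 and 1733 ± 107 CPM (SD, n = 3 each), and did not pass (edgeR, BH-adjusted p = 0.103). The part of these genes in the difference of the immediate-early genes was not tested.

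**Figure D4:**
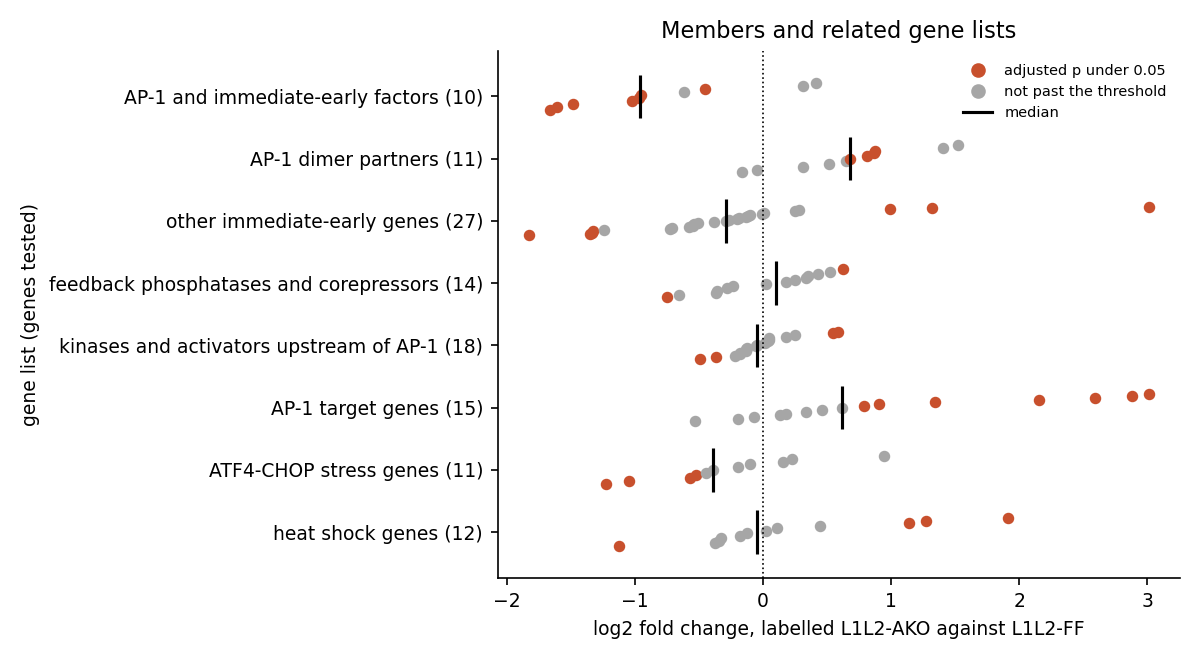
Log2 fold change of each tested gene (points) in the 10 AP-1 and immediate-early factors and in 7 related lists, between the libraries labelled L1L2-AKO and L1L2-FF, with the median of each list as a black bar and called genes in colour. The medians are -0.96 for the 10 factors, 0.68 for the dimer partners and 0.62 for the AP-1 target genes.

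Markers of other cell types differed between the genotypes as well. Of 12 macrophage markers, 11 rose and 0 fell, beside 9.28% higher and 7.18% lower among all tested genes, with summed levels of 282 to 556 CPM in L1L2-FF and 1025 to 1140 CPM in the libraries labelled L1L2-AKO, and *Mrc1*, the mannose receptor, rose from 71.5 ± 23.6 to 256 ± 28.1 CPM (SD, n = 3 each). With a library left out 6 to 11 of them rose, 6 without L1L2-FF replicate 1 and 7 without L1L2-AKO replicate 2. Schwann cell markers summed to 496 to 1290 CPM and 161 to 407 CPM (4 of 8 fell), mural cell markers to 1027 to 1380 and 772 to 1036 CPM (3 of 8 fell, 1 rose), and progenitor markers to 491 to 725 and 368 to 470.1 CPM (3 of 10 fell). Endothelial markers, at 2039 to 2735 and 1186 to 2564 CPM (1 of 10 fell), and lymphocyte and granulocyte markers, at 32.5 to 48.8 and 31.98 to 55.8 CPM (0 of 8 passed), overlapped in their sums, as did the mural cell markers. These counts of calls were unstable: with a library left out 1 to 5 of the Schwann cell, 1 to 5 of the mural cell, 0 to 3 of the progenitor and 0 or 1 of the endothelial markers fell, the lowest numbers without L1L2-AKO replicate 3 (Schwann cell, also without L1L2-FF replicate 2 or 3 or L1L2-AKO replicate 1) and without L1L2-FF replicate 1 or L1L2-AKO replicate 2 (mural cell and progenitor, and endothelial, for which it was also 0 without L1L2-FF replicate 2 or L1L2-AKO replicate 3). By DESeq2 8 of the Schwann cell, 5 of the mural cell and 6 of the mature adipocyte markers fell, by limma-voom 2 of the Schwann cell and 2 of the progenitor markers, and with the replicate number as a block 7 of the Schwann cell, 5 of the mural cell and 4 of the endothelial markers. Of 10 mature adipocyte markers 3 fell (2 to 5 with a library left out, the 5 without L1L2-FF replicate 2 and the 2 without L1L2-FF replicate 1 or L1L2-AKO replicate 2 or 3), and their sums were 18322 to 20517 and 13616 to 16850 CPM. No marker of these lists was at 0 in all libraries. Within L1L2-FF, replicate 3 was the lowest library in the sums of macrophage, endothelial, mural, progenitor, and lymphocyte and granulocyte markers, as it was in the 10 genes. The part of these cell types in the levels of the 10 genes, or in those of the related lists such as the AP-1 target genes, was not tested.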

How the data were processed

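Counts per gene were compared between 3 L1L2-FF and 3 L1L2-AKO libraries of P7 adipocytes, each a pool of 4 mice, grouped by the submitters' labels. The authors read paired ends, aligned them to mm10 with HISAT2 2.1.0 and processed them with SAMtools and StringTie 1.3.5 (tools and build also in the submitters' processing notes). Their table, as deposited, gives raw counts for each gene symbol without normalization. The annotation, the counting program and its strand setting are not given in the sources used here. Replicates of a genotype differed by more than sampling noise (chi-square per degree of freedom of at least 30.0). P-values measure the spread between these pools.

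Genes were filtered with edgeR's filterByExpr (minimum count 10, minimum total count 15), scaled by TMM and tested two-sided with edgeR 4.0.16 (quasi-likelihood, R 4.3.3), with Benjamini-Hochberg adjustment over 15674 genes and a threshold of 0.05. Log2 CPM used a prior count of 2, count ratios a prior of 0.5. Gene models, exonic lengths and overlaps came from GENCODE M21, in which 36888 symbols of the table were found. Alternatives were DESeq2 1.42.0 (size factors, Wald test), limma-voom (limma 3.58.1), library size, upper quartile, no filter, a replicate block and each library left out. Python 3.11.15 with pandas 2.3.3 and matplotlib 3.10.9 made tables and plots.

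The members and lists were chosen with earlier results of these data known. Named beside the 10 genes and *Lats1* and *Lats2* were the genes nearest in pattern to *Fos* and *Fosl2* and, from each list, the 2 most abundant genes and up to 2 more called genes with the largest change. Other called genes are named to complete a count. Some genes under this rule are not reported here.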

Additional observations from a re-analysis of the deposited data

How the results depend on the processing

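Over the other normalizations, tests and filters, 2447 to 3370 genes passed the threshold, against 2580, and 6 or 7 of the 10 AP-1 and immediate-early genes fell, with 0 higher in each. With each library left out, 1281 to 2845 genes passed, 777 to 1552 of them higher and 467 to 1293 lower. The low numbers came without L1L2-FF replicate 1 (1290), L1L2-AKO replicate 2 (1281) and L1L2-AKO replicate 3 (1374), each with 1 library fewer. The 7 related lists together held 32 genes past the threshold, and 16 to 31 with a library left out, with 16, 18 and 17 without the same 3 libraries. The calls of *Fos*, *Fosb*, *Jun*, *Ier2* and *Atf3* held under every alternative run, and *Fosl1* and *Fosl2* passed under none. No alternative turned the direction of any of the 10 genes or of the 4 count ratios.

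The labels do not say whether samples with the same replicate number were handled together. Their deviations from the genotype means correlated at 0.188, 0.255 and -0.0544 for numbers 1 to 3. Replicates 1 and 2, but not 3, of L1L2-FF correlated best with their own number. With the replicate number as a block, 2514 genes passed, and 5 of the 10 fell: *Jund* (adjusted p = 0.0684) and *Egr1* (adjusted p = 0.0503) did not, by edgeR with BH adjustment. The 4 count ratios gave p = 0.25 in a sign-flip test of the paired differences (exact, two-sided, n = 3 pairs), the smallest p that 3 pairs allow. Group medians in place of means gave differences of 1.19 to 2.17 (exact permutation p = 0.2 each). Depth limited *Fosl1*, with at most 118 counts in a library, for which the 95% interval of the log2 fold change spans -0.42 to 1.04.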

Other observations

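The NR4A orphan nuclear receptors, another set of immediate-early genes, had log2 fold changes of both signs. *Nr4a1* and *Nr4a2*, which were chosen after their values were seen, stood at 205 and 28.5 CPM in L1L2-FF and at 124 and 21.8 CPM in the libraries labelled L1L2-AKO, with log2 fold changes of -0.73 and -0.39 that did not pass (*Nr4a1* passed without L1L2-FF replicate 3, with a BH-adjusted p of 0.0241 by edgeR, and by DESeq2), whereas *Nr4a3* had 3.01. Differences between these 3 genes were not tested. In the libraries labelled L1L2-AKO, *Nr4a3*, *Il6*, *Gadd45g* and *Fosl2* were each lowest in replicate 1. They were picked after their values were seen, and the order is not particular to them. Other listed genes, among them *Ccl2*, *Btg2* and *Adipoq*, were lowest there too, whereas *Plk2* and *Ccnd1* were highest there.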
